A study of Mus musculus with 4 samples.

Results

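The 10 genes described here encode subunits of the NuRD complex, a corepressor that BCL11A recruits to its target sites. They were chosen by name: Chd4, Hdac1, Hdac2, Mta1, Mta2, Mta3, Mbd3, Gatad2a, Gatad2b and Rbbp4, out of 21887 protein-coding genes in the RefSeq table. For each gene, every open region that overlapped the gene body or the 50 kb on either side was taken, which gave 133 of the 77914 regions of the series, with no region in the windows of 2 members. Accessibility was measured by ATAC-seq, in which a transposase cuts and tags open chromatin, in MPP3 cells, a multipotent haematopoietic progenitor with a granulocyte and monocyte bias. The cells came from bone marrow of WT-iMOS mice 3 months of age and formed a T1 group and a T2 group, with 2 libraries each. All 4 libraries share the strain, tissue, cell type and age, and the labels give WTiMOS_T1 and WTiMOS_T2 as genotypes without saying what separates them. Nothing says that the 2 libraries of a group came from separate animals, so the spread between them may be technical. The comparison is T1 against T2, in a series concerned with the role of Bcl11a in these progenitors.

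NuRD joins 2 enzymatic activities in 1 complex. CHD4 is an ATPase that slides nucleosomes, and HDAC1 and HDAC2 remove acetyl groups from histones. MTA proteins are the scaffold that binds the deacetylases, MBD3 is the methyl-CpG-binding-domain subunit, GATAD2A and GATAD2B bridge the MBD subunit and CHD4, and RBBP4 is a histone chaperone that holds histone tails. Many zinc-finger factors of blood cells, BCL11A and Ikaros among them, bind NuRD, and its loss disturbs stem and progenitor cells.

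The 4 peak lists held between 54045 and 66764 peaks on the chromosomes used, and the T2 lists were both longer than the T1 lists. The lists carry no read counts, so sequencing depth is unknown. A region is the union of overlapping peaks of the 4 lists. A region is named T1-only when its peaks came from the pair of T1 lists and from no T2 list, and T2-only the other way round. The percentile printed for a region is its strength within a list, the share of a library's own peaks with a lower −log10 q, where −log10 q is the authors' significance of a peak over its local background. Fold values are the authors' ratio of a peak's summit to that background. As a check of the sort, 7 of 10 progenitor genes had a peak at the gene start or end in each T1 library and 8 of 10 in each T2 library. Elane and Ly6a had none in any library, and Mpo had one in the T2 libraries alone. Genes of other cells had such peaks too: 2 of 3 erythroid, 2 of 2 megakaryocyte, 1 of 3 T cell, 1 of 2 endothelial and 2 of 2 stromal genes in every library, and 1 of 3 B cell genes in each T1 library against 2 of 3 in each T2 library. Cd3e, Cd8a, Ms4a1, Hbb-bs and Cdh5 had none. At 5 of the 8 such genes with a peak in every library, both T2 libraries ranked above both T1 libraries (Klf1, Epor, Itga2b, Pf4 and Pecam1), as they did at 4 of 7 progenitor genes (Flt3, Cd34, Spi1 and Fcgr3) and at 33.2% of all start regions. Pecam1, an endothelial and platelet adhesion gene, moved most, from the 58.5th and 49.8th percentile in T1 to the 85.6th and 80.6th in T2, and Col1a1 alone was higher in both T1 libraries. What part this has in the results below was not tested.

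All 10 NuRD genes had an open region at the gene start, or at a gene end for Mta3 and Hdac1, in all 4 libraries. Of 17492 genes with a listed start 61% did. A start region is the highest-ranking region within 1 kb of a listed start. Mta3 and Hdac1 have no entry in the start table, so their higher-ranking gene end was used, a choice that the genes behind the 61% did not have. Mta1 counts only because a long peak of T2 replicate 1 joins separate peaks, as described below. In 7 of the 10 genes the start region ranked above the 89th percentile in every library, and the median over the 10 genes was the 94.9th and 96.0th percentile in T1 replicates 1 and 2 and the 97.0th and 95.3rd in T2 replicates 1 and 2. The median start region of all 10677 genes that had one in every library stood at the 85.2nd percentile. The exceptions were Mta1, Chd4 and Mta3.

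**Figure D1:**
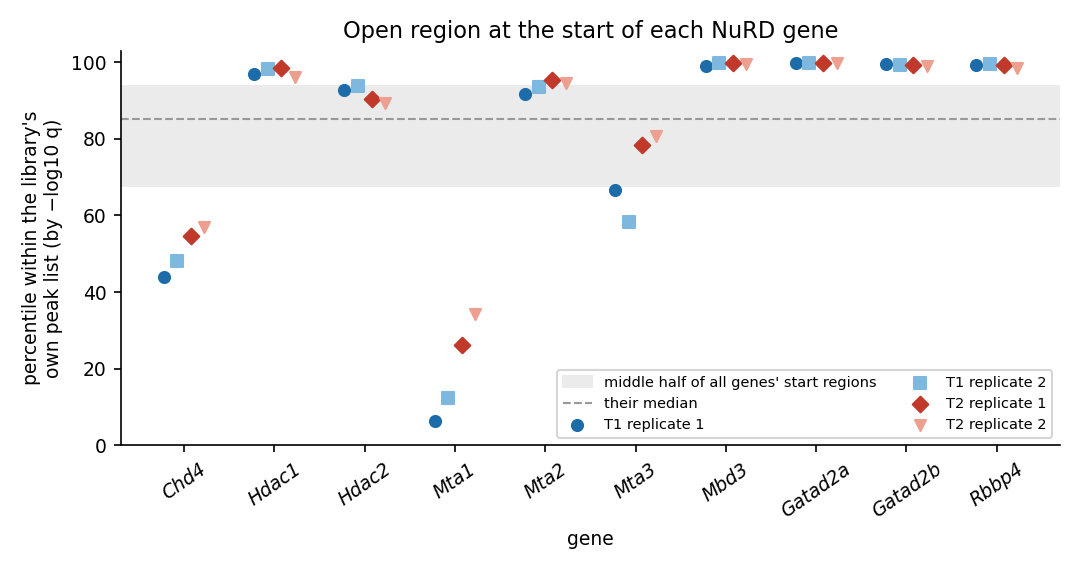
Percentile of the start region of each NuRD gene within each library's own peak list (vertical axis) by gene (horizontal axis), 1 point per library. The band spans the 67.7th to the 93.7th percentile, the quartiles of all genes' start regions, and the dashed line is their median, 85.2; Mta1, Chd4 and the T1 points of Mta3 lie below the band.

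The DNA just before the start is shown for 4 members, chosen because they span the range: Mta1 and Chd4 with the weakest start regions, Mta2 with the sharpest common summit, and Gatad2b with one of the strongest. Each sequence is the 250 bases before the start in RefSeq's GRCm38.p6 table (mm10 is the same assembly), 5′ to 3′ on the gene's own strand. All 4 genes lie on the plus strand, and the stretches are chr12:113098028-113098277 (Mta1), chr6:125095731-125095980 (Chd4), chr19:8941670-8941919 (Mta2) and chr3:90292931-90293180 (Gatad2b). Capitals mark the motifs searched on both strands that were found: the GC box GGGCGG of SP and KLF factors, the CCAAT box of NF-Y, and the ETS motif CCGGAAG.
Mta1: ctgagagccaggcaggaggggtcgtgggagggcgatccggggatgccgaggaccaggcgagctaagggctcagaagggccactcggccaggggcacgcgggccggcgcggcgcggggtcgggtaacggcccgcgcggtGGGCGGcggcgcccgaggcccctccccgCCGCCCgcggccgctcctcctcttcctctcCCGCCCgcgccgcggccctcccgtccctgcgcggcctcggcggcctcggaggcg
Chd4: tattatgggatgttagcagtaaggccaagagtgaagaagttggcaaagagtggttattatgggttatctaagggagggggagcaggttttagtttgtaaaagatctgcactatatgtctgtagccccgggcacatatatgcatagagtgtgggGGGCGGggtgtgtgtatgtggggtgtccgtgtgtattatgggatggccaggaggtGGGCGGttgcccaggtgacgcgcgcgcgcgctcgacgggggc
Mta2: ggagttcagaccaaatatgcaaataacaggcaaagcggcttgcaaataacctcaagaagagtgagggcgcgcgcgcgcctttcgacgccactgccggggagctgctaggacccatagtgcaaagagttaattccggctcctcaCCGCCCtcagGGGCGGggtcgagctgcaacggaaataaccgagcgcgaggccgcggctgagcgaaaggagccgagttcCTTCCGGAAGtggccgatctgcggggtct
Gatad2b: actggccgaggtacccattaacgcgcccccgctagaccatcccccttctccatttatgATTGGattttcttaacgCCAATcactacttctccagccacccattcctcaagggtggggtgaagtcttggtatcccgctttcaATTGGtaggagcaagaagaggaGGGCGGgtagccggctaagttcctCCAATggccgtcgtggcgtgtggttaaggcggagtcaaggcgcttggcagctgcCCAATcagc

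Of the 10 members 8 matched the promoter table, and a GC box was found in all 8, where 42.7% of 17492 promoters hold one. CCAAT boxes were in 4 of 8 (36.5% of all promoters), namely Mbd3 with 3, Gatad2a with 2, Gatad2b with 5 and Rbbp4 with 1. These 4 genes also had the 4 highest-ranking start regions among the members, a description over 8 genes. Mta2 alone held the ETS motif, as 2 overlapping matches on opposite strands, where 9.15% of promoters hold it. The BCL11A recognition motif TGACCA was in 0 of the 8 stretches, against 10.6% of all promoters. NRF1, YY1 (AAGATGG), CRE (TGACGTCA) and ZBTB33 motifs were also in 0 of 8, against 5.32%, 4.08%, 1.98% and 0.6%. The Mta1 stretch was 80.8% G and C, above 98.8% of promoters, and held 39 CpG dinucleotides against a median of 10. The Chd4 stretch was 54% G and C with 12 CpG, near the median of 55.2%.

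Among the enzymes, Chd4 had the weakest start region and both deacetylases had strong ones. Chd4, on chr6:125095980-125130591, had a start region at chr6:125095036-125096443 that ranked at the 44th and 48.1st percentile in T1 and at the 54.6th and 57th in T2. Both T2 libraries thus stood above both T1 libraries, by 9.78 points (46.0 ± 2.89 against 55.8 ± 1.69, SD, n = 2 per group). Its start region ranked above that of 13.7% of genes. The authors' fold values there were 4.48, 5.16, 5.07 and 5.72 in T1 replicates 1 and 2 and T2 replicates 1 and 2. The groups overlapped on that scale. With ranks taken from the fold value within each list, they did not overlap, and the difference was 7.82 points. A second region within 1 kb of the Chd4 start, chr6:125096833-125097352, stood at 25.8 and 37.8 in T1 and 34.6 and 46.8 in T2. At that second region the groups overlapped.

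Hdac1, on chr4:129516104-129542646, had a gene-end region at chr4:129542360-129543162 at the 97.0th and 98.3rd percentile in T1 and the 98.6th and 96.2nd in T2. The T2 values lay on both sides of the T1 values, and the difference of means was −0.28 points. Hdac2, its paralog on chr10:36974297-37001889, had a start region at chr10:36973998-36975401 at the 92.8th and 93.7th percentile in T1 and the 90.3rd and 89.3rd in T2. Here both T1 libraries were higher than both T2 libraries, and the T2 minus T1 difference was −3.48 points. The 2 deacetylase genes differed in how many open regions surrounded them. The Hdac2 window of 128 kb held 1 region, the start region itself, which is 0.784 per 100 kb. The Hdac1 window of 127 kb held 13, or 10.3 per 100 kb, and the other members held 12 to 24. Of all protein-coding genes 15.6% had fewer regions than Hdac2, and the median gene had 7.

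The start regions of the 3 scaffold genes spanned a wide range, with Mta2 high, Mta3 below the median gene and Mta1 near the bottom. Mta2, on chr19:8941920-8952300, had a start region at chr19:8941545-8942565 at the 91.8th, 93.6th, 95.3rd and 94.5th percentile in the order given above. Its summit lay at the same base, 4 bp after the start, in all 4 libraries. The region also covers the end of Eml3, so it is not the region of Mta2 alone. Mta1, on chr12:113098248-113137206, had the lowest start region of the 10 genes, ranking above that of 2.12% of genes. It stood at the 6.35th and 12.3rd percentile in T1 and at the 26.1st and 34.2nd in T2, a difference of 20.9 points (9.31 ± 4.19 against 30.2 ± 5.74, SD, n = 2 per group), and the groups did not overlap.

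The Mta1 start region joins peaks that do not all cover the same bases. In T1 replicate 2 and in both T2 libraries a peak had its summit 86, 128 and 134 bp before the start. T1 replicate 1 had no peak there. Its peak lay 347 bp beyond that of T1 replicate 2, with its summit 539 bp after the start, where T2 replicate 2 also had a second peak (568 bp after). The long peak of T2 replicate 1, 1275 bp, joined both places into 1 region, and without T2 replicate 1 no region of Mta1 within 1 kb of its start was in every library left. At the other 9 members the peaks of the 4 libraries had bases in common.

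Mta3, on chr17:83706163-83823715, the longest of the 10 genes at 118 kb, ranked higher in T2 at both gene ends. The region at the lower-coordinate end, chr17:83705493-83707020, stood at the 66.6th and 58.4th percentile in T1 and the 78.3rd and 80.6th in T2, a difference of 17.0 points (62.5 ± 5.79 against 79.4 ± 1.66, SD, n = 2 per group). The region at the other end, chr17:83823099-83824299, stood at 64.9 and 58.7 in T1 and at 73.2 and 74.0 in T2. The groups were apart at both ends.

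The MBD and bridging subunits and the histone chaperone had start regions close to the top of every list. Mbd3, on chr10:80392539-80399531 on the minus strand, ranged from 98.996 to 99.849 on the percentile scale over the 4 libraries. Gatad2a, on chr8:69907069-69996402, ranged from 99.85 to 99.93 and ranked above the start regions of 99.7% of genes, with −log10 q of 335, 285, 349 and 294. A second listed start inside Gatad2a, covered by chr8:69973582-69974899, was also open in all 4 libraries, at the 86.6th to the 91.3rd percentile. Gatad2b, on chr3:90293181-90363405, ranged from 98.98 to 99.54. Rbbp4, on chr4:129307100-129335370, ranged from 98.6 to 99.4, and its start region also holds the start of Zbtb8os, so the 2 genes cannot be told apart there. Differences between groups at these 4 genes were at most 0.377 points, and a region this high in its list has no room to rise by 10 points.

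In the exact permutation test over the 4 libraries (two-sided), run for 10 start regions, 7 reached p = 0.33, the smallest that 2 against 2 libraries allow. After Benjamini-Hochberg adjustment these stood at 0.476. Both T2 libraries ranked above both T1 libraries at 5 of 10 start regions (33.2% of all start regions), and both T1 above both T2 at 2 of 10 (16.8%). With a difference of at least 10 points, the counts were 2, Mta1 and Mta3, against 10.1% of all start regions on the T2 side, and 0 against 2.49% on the T1 side. The T2 lists are longer, so the same percentile is not the same place in each list. When ranks were taken only among the regions found in all 4 libraries, a setting chosen after seeing the data, the differences were 9.03 points at Mta1, 17 at Mta3 and 3.9 at Chd4. At Chd4 the groups then overlapped, as they did with lists of equal length, where the difference was 3.28 points.

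Most of the open chromatin around the NuRD genes was common to both groups. Of the 133 regions 97 had a peak in all 4 libraries, or 72.9% (95% Wilson interval 64.8 to 79.8, counting error only), against 56.8% of all regions and 57.9% of regions within 50 kb of any protein-coding gene. Only 2 were T1-only, or 1.5% (0.413 to 5.32) against 2.33% of all regions and 2.25% of those near genes. T2-only regions numbered 4, or 3.01% (1.18 to 7.48), against 6.88% and 6.64%. The other 30 had other combinations, 20 of them in a single library. Over the windows of all protein-coding genes, with a region counted once per gene, 61.8% were shared, 1.99% T1-only and 6.11% T2-only. Of the 133 regions 38 lay within 1 kb of a listed start, against 12044 of all 77914. The shared part was 89.5% there (87.3% over the genome), 64.4% in gene bodies away from a start (52.1%) and 69.4% outside genes (50.1%). In the member windows, shared regions had a median width of 872 bp and the rest of 299.5 bp. The windows held 113 and 102 regions with a peak in T1 replicates 1 and 2 and 118 and 114 in T2 replicates 1 and 2. The difference of 8.5 regions (107.5 ± 7.78 against 116 ± 2.83, SD, n = 2 per group) gave p = 0.33 by the exact permutation test (two-sided), the smallest possible, and was 3 regions without T1 replicate 2 and 14 without T1 replicate 1. T2 had 1.08 times the T1 number here and 1.15 times over the genome.

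**Figure D2:**
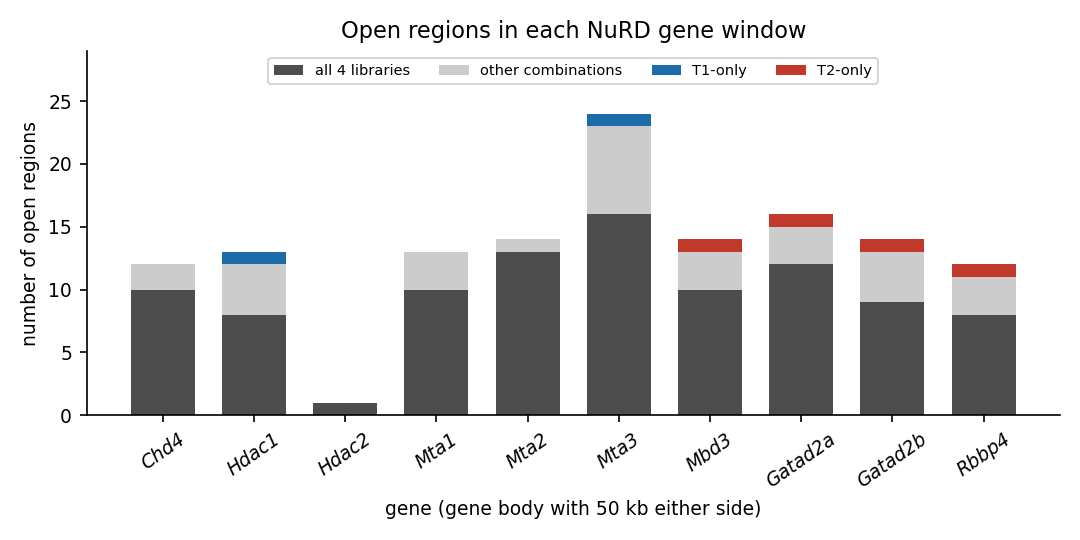
Number of open regions (vertical axis) in the window of each NuRD gene (horizontal axis), split by the libraries that had a peak. Regions of all 4 libraries make up most of every bar, and Hdac2 has 1 region where Mta3 has 24.

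Each group-only region lay away from gene starts, and 6 of the 10 genes had one. Of all protein-coding genes, 13.6% had at least 1 T1-only region in the window and 35% at least 1 T2-only region, against 2 and 4 of the 10 members. Within 1 kb of a listed start of any gene, 34 of 38 regions were shared and 0 were group-only, which allows a share of up to 7.89%. Over the genome, 87.3% of such regions were shared, 0.332% were T1-only and 2.2% T2-only.

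The T1-only regions were at Mta3 and Hdac1. The Mta3 region, chr17:83764660-83764961, lies inside the gene, 58.6 kb from its nearer end, where −log10 q was 10.3 in T1 replicate 1 and 7.75 in T1 replicate 2. The Hdac1 region, chr4:129502822-129503178, lies outside genes, 10403 bp from Marcksl1, with 7.12 and 4.77. Both were weak, at or below the 22.9th percentile of their lists.

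The T2-only regions were in the windows of Mbd3, Gatad2a, Gatad2b and Rbbp4, and none lay inside its member. These are also the 4 genes with the highest-ranking start regions, a match that was not tested. The one in the Mbd3 window, chr10:80442993-80443307, lies 43.6 kb from the Mbd3 start and nearest to Tcf3, which encodes the E proteins E12 and E47, where −log10 q was 10.6 in T2 replicate 1 and 9.27 in T2 replicate 2. The one in the Gatad2a window, chr8:70012345-70013044, lies 16.3 kb from the Gatad2a start. It is nearest to Mau2, a cohesin loading factor gene, and was the weakest of the 4, with 4.85 and 4.11. The one in the Gatad2b window, chr3:90412778-90413053, lies 119 kb from the nearest Gatad2b start, inside Ints3, an Integrator subunit gene, with 11.1 and 12.5. The one in the Rbbp4 window, chr4:129373552-129373848, lies 38.3 kb from the Rbbp4 start inside Zbtb8a, a zinc-finger gene, with 9.63 and 9.72. These 4 regions were weak too, at or below the 30.8th percentile of their lists. With windows of 10 kb in place of 50 kb, 0 T2-only regions (6.88% of all regions) and 1 T1-only region (1.72%, against 2.33%) were left among 58 regions. The counts also rest on single libraries, as do the genome shares: leaving out T1 replicate 2 gave 8 T1-only regions (5.97%, against 6.14% over the genome). T2-only regions came to 8 without T1 replicate 1 (6.3% against 13.1%), 11 without T2 replicate 1 (8.66% against 12.5%) and 13 without T2 replicate 2 (10.2% against 15.7%).

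Among the 97 shared regions, 13 ranked higher in T2 by at least 10 points with both T2 libraries above both T1 libraries, or 13.4% (95% Wilson interval 8 to 21.6), against 22.8% of the 44274 shared regions of the genome. In the other direction 3 did, or 3.09% (1.06 to 8.7), against 6.09%. Without the 10-point limit the counts were 30 and 14, against 40.7% and 14.2% of the shared regions of the genome. The median difference was 0.681 points here and 3.16 points over the genome. The shared regions here also ranked higher to begin with, at a median of the 73.4th percentile against the 61.6th over the genome. Regions near the top of a list have no room to rise by 10 points, so the shares are not like for like. What part this has in the lower T2 share was not tested. With lists of equal length, 6 ranked higher in T2 (6.67%, against 12.6% over the genome) and 12 in T1 (13.3% against 13.2%), so the excess on the T2 side was not seen in that setting. The T1 count was 10 without T2 replicate 1 (10.4% against 10.7%) and 7 without T1 replicate 2 (6.86% against 9.53%), and the T2 count was 22 without T1 replicate 1 (22.2% against 31.4%).

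**Figure D3:**
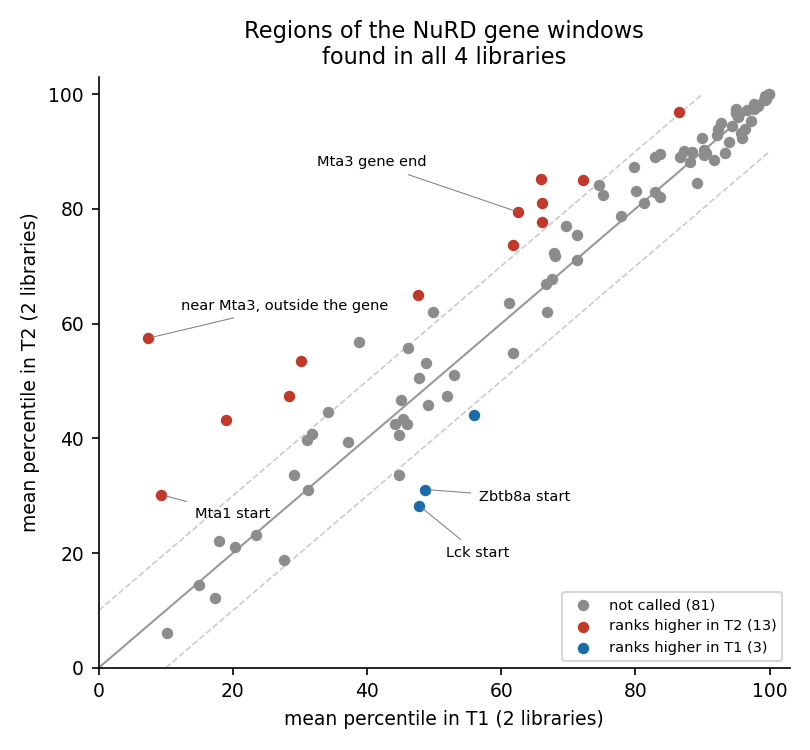
Mean percentile in the 2 T2 libraries (vertical axis) against the mean in the 2 T1 libraries (horizontal axis) for the 97 regions found in all 4 libraries. The solid line marks equal ranks and the dashed lines 10 points either side; the region near Mta3 but outside it lies farthest above the line, at 7.28 and 57.4.

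The region farthest from equal rank was near Mta3. It lies outside the gene at chr17:83699097-83699700, 6.76 kb from the lower-coordinate end, and was singled out after its values were seen. It ranked at the 6.44th and 8.12th percentile in T1 and at the 64.6th and 50.2nd in T2, a difference of 50.1 points. The authors' fold values were 3.79 and 4.24 in T1 and 8.97 and 7.25 in T2, and −log10 q was 5.22 and 5.24 in T1 and 37.5 and 22.1 in T2. Both T1 libraries were low and both T2 libraries high on each scale. Of the shared regions of the genome 18 (0.0407%) had a difference at least as large. The difference was 37.6 points when ranks were taken among the regions found in all 4 libraries, and once peaks under a −log10 q of 10 were dropped the region was T2-only. With lists of equal length it lacked a peak in T1 replicate 1, and when peaks had to cover 0.5 of the region it lacked one in T1 replicate 2, so that it was in neither class. It is 1 of 97 regions compared, and no exact permutation test could give it a p below 0.33.

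Mta3 held 4 of the 13 regions that ranked higher in T2: the one just described, both gene ends, and a region at chr17:83872767-83873224 outside the gene, at 76.9 and 67.6 in T1 and 86.1 and 84.0 in T2. These 4 are out of 16 shared regions in the Mta3 window, and 22.8% of the shared regions of the genome ranked higher in T2 by the same rule. Of the 16, 12 had a higher mean percentile in T2, for which no genome share was computed. Their median difference was 2.75 points, against 3.16 points over the genome. T1 replicate 1 had a peak at all 24 regions of this window and T1 replicate 2 at 17, and 5 of the 6 regions that only T1 replicate 1 had in the 10 windows lay here. The 2 strongest regions inside the gene, chr17:83731910-83733039 and chr17:83772724-83773278, were above the 93rd percentile in every library.

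**Figure D4:**
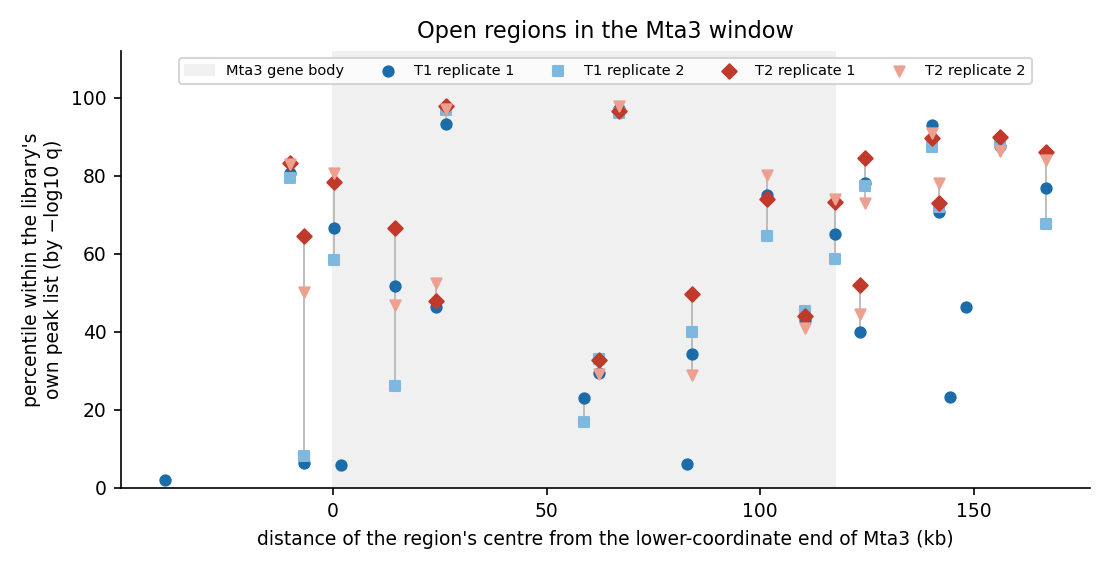
Percentile of each region of the Mta3 window in each library (vertical axis) by the distance of its centre from the lower-coordinate end of the gene in kb (horizontal axis), with a thin line joining the libraries. Just left of the gene body, 6.76 kb from its end, the 2 T1 points lie at 6.44 and 8.12 and the 2 T2 points at 64.6 and 50.2.

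The other regions that ranked higher in T2 were spread over 6 windows. Besides its start region, Mta1 had 1 at chr12:113146166-113147317 (66.0 in T1 and 77.7 in T2, means of 2 libraries). Chd4 had 1 at chr6:125088489-125090394, between Lpar5 and the Chd4 start, at 64.7 and 67.6 in T1 and 81.2 and 80.9 in T2. Mta2 had 2, in Ints5 and in Ahnak, with differences of 24.3 and 17.4 points. Hdac1 had 2, at chr4:129500615-129501163 and at chr4:129575092-129575737, the latter at 87.2 and 85.8 in T1 and 97.0 and 96.7 in T2. Gatad2b had 1, at the start of Slc27a3, and Rbbp4 had 1, at chr4:129272352-129273080 nearest to C77080, with T1 means of 28.4 and 30.2 and T2 means of 47.3 and 53.5. The Ints5 region stood at 32.8 and 4.98 in T1 and at 37.8 and 48.6 in T2. The Slc27a3 region stood at 40.4 and 16.4 in T1 and at 50.4 and 44.3 in T2. At both, the T1 libraries differed from each other by more than the gap between the groups. None of the 13 was inside a member away from its ends: all 16 shared regions of that kind stayed uncalled in either direction. A count of 0 allows up to 18.8%, a limit that takes regions of the same gene as independent. Among the 16, chr17:83720351-83721012 in Mta3 and chr12:113102400-113102764 in Mta1 had T2 means higher by 17.9 and 12.3 points. They stayed uncalled because the libraries of the 2 groups overlapped. Of all shared regions of the genome, wherever they lie, 22.8% were called on the T2 side and 6.09% on the T1 side.

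The 3 regions that ranked higher in T1 were at neighbouring genes and not at the NuRD genes themselves. Lck, a tyrosine kinase of T cell receptor signalling beside Hdac1, had 2 of them. The one within 1 kb of an Lck start, chr4:129558265-129558818, stood at the 43.0th and 52.5th percentile in T1 and the 32.3rd and 24.2nd in T2. The second, chr4:129555429-129556990, inside Lck, stood at 60.6 and 51.5 in T1 and at 45.3 and 42.8 in T2. The third was at the start of Zbtb8a in the Rbbp4 window, chr4:129377034-129378235, at 58.9 and 38.5 in T1 and 36.8 and 25.3 in T2. At the Zbtb8a region, as at the Ints5 and Slc27a3 regions above, the T1 libraries differed from each other by more than the gap between the groups.

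Around the other NuRD genes on the list, which encode further subunits of the same complex, group-only regions were on the T2 side. Rbbp7, Mbd2, Chd3, Chd5, Cdk2ap1 and Cdk2ap2 together had 8 T2-only regions among 75, or 10.7% (95% Wilson interval 5.5 to 19.7), against 6.88% of all regions. They had 0 T1-only regions, which allows up to 4%, against 2.33% of all regions. Cdk2ap2 had 3, Chd5 had 2, and Mbd2, Chd3 and Cdk2ap1 had 1 each. The highest single −log10 q among the 8 was 25.2, at chr19:4080642-4081086 at Cabp2 in the Cdk2ap2 window (14.4 in the other T2 library). The 11 other corepressor genes (Kdm1a, Rcor1, Sin3a, Sin3b, Ncor1, Hdac3, Bcor, Dnmt1, Zmynd8, Sall4 and Zbtb7a) held 156 regions. Of these 13 (8.33%, against 6.88% of all regions) were T2-only and 3 (1.92%, against 2.33%) T1-only. Rcor1 had 3 T2-only regions, Zmynd8 had 2 of each class, and Sall4 and Zbtb7a had 2 T2-only regions each. Kdm1a, the demethylase of the CoREST complex, had 1 of each class, and Sin3b, Hdac3 and Bcor had 1 T2-only region each. At Zbtb7a, which encodes a globin repressor that also binds NuRD, the T2-only region chr10:81134255-81134622 had −log10 q of 33.0 and 32.7. The other, chr10:81173195-81173411 at Eef2, had 25.8 in both T2 libraries. Bcl11a itself had 4 T2-only regions among 23, or 17.4% (95% Wilson interval 6.98 to 37.1), against 6.88% of all regions. It had 1 T1-only region, or 4.35% (0.772 to 21), against 2.33%. The highest −log10 q among them was 14.2, in T2 replicate 1, and the T1-only region had 3.6 and 3.05. Whether these lists differ from the 10 members was not tested.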

How the data were processed

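ATAC-seq peak lists of 4 libraries of MPP3 cells, 2 labelled T1 and 2 labelled T2, were analysed. The submitters' processing notes name Bowtie2, SAMtools, MACS2 and build mm10; for versions, settings, filters and the transposase shift, the sources used here give nothing. Peak names differ in prefix between files, as when each library is called on its own by the authors. The deposited fold value is a ratio of summit to local background, and the deposited −log10 p and −log10 q measure its significance, in the column order MACS2 writes. The deposited score follows the −log10 q. Count models were not used, since the lists hold no counts, and depth is unknown.

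Peaks of the autosomes, X and Y were joined across lists where they shared 1 bp. Genes and starts came from RefSeq tables on GRCm38.p6; exons were not used, and the start table replaced gene ends where it had an entry. Member counts of each class are read against the same share over the genome. The exact permutation test (two-sided) was run over libraries. The members and lists were chosen with earlier results of these data known. All members are named; of the other listed genes those with a group-only region are named, and neighbours where such a region lies. One item of the lists is not reported here and was left out of their counts. Alternatives were stricter peaks, equal list length, coverage of 0.5 of a region, 250 bp around summits, windows of 10 and 100 kb, ranks by fold, a difference of 5 points, and leaving out each library. The joining and calling were run on simulated lists of equal length with well-separated peaks of a single width. Unequal list lengths, joined peaks as at Mta1 and rank rises near the top of a list were not covered. Python 3.11.15, pandas 2.3.3, NumPy 2.4.6 and SciPy 1.17.1 were used.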

Additional observations from a re-analysis of the deposited data

How the results depend on the processing

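The numbers of regions of each kind in the 10 windows moved with the settings, while the share in all libraries used was above that of the genome in each setting (66.9% to 78% against 49.4% to 63.7%). In brackets stands the same share over the genome. T1-only regions numbered 2 as reported, 1 of 126 with a −log10 q minimum of 5 (2.26%), 0 of 114 with a minimum of 10 (2.25%), 5 of 122 with lists of equal length (4.6%) and 1 of 58 with windows of 10 kb (2.33%). T2-only regions numbered 4 as reported, 0 of 58 with 10 kb and 9 of 227 with 100 kb (6.88% for both). Regions in all 4 libraries numbered 97 as reported, 45 with 10 kb and 164 with 100 kb, as fewer or more regions fall in the windows. Shared regions ranking higher in T1 numbered 3 as reported, 12 of 90 with lists of equal length (13.2%), and, of 97, 9 with ranks among regions in all 4 libraries (13.4%) and 7 with ranks from the fold value (7.99%). They numbered 0 of 45 with 10 kb and 5 of 164 with 100 kb (6.09% for both). Those ranking higher in T2 numbered 13 as reported, 6 of 90 with lists of equal length (12.6%), 6 of 45 with 10 kb and 30 of 164 with 100 kb (22.8% for both).

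Leaving out 1 library at a time gave 2 to 8 T1-only regions (3.44% to 6.14% over the genome), 6 to 13 T2-only regions (9.67% to 15.7%) and 96 to 102 regions in every library left (61.5% to 63.7%). It gave 2 to 10 shared regions higher in T1 (6.81% to 10.7%) and 15 to 22 higher in T2 (23.9% to 31.4%), and a difference of 3 to 14 regions per library. The difference between the groups' median start percentiles was 0.666 points as reported, −0.625 with lists of equal length, and −1.48 to 1.48 without 1 library. Both negative values, with lists of equal length and without T2 replicate 1, are over the 9 members other than Mta1, for which the reported setting gives −0.279, so the sign also turns with the leaving out of Mta1. The direction at single start regions turned with ranks from the fold value at Gatad2a (−0.513) and Gatad2b (1.67). It turned without T1 replicate 2 (0.372) or T2 replicate 2 (0.926) at Hdac1 and without T2 replicate 2 (0.00718) at Rbbp4; without 1 library the range was −1.48 to 0.926 at Hdac1 and −0.682 to 0.00718 at Rbbp4. At Mta1 no value could be had with lists of equal length or without T2 replicate 1, since the start region then lacked a peak in 1 library. With the replicate number as a block, the difference of 8.5 regions per library stayed as it was, and the exact permutation p was 0.5, the smallest that 2 pairs allow. Nothing in the labels ties equal numbers to a common animal, batch or day. The cause of the other changes was not tested.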

Other observations

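Among the start regions of the other listed genes, that of Bcor, a BCL6 corepressor gene, was singled out after its values were seen, since no member led in T1 by as much. It stood at 60.5 ± 0.862 in T1 and 46.1 ± 0.342 in T2 (mean percentile, SD, n = 2 per group). The groups did not overlap, as at 2.49% of all start regions with a T1 lead of at least 10 points. Chd3 had no region within 1 kb of either gene end.

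The genes outside the lists whose start regions lay nearest to the members' medians in all 4 libraries were Ints4, Pign and Relch, at a distance of 0.54 to 0.62 percentile points. Pign and Relch had the same 4 values. Of 10657 genes compared, 1659 lay within 5 points, so the likeness sets none of them apart.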
